A study of Zea mays with 24 samples.

Results

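The comparison described here sets the young shoots of the maize (Zea mays) cultivar ST against those of the cultivar SS after salinity treatment, and asks which transcripts differ between the cultivars in salinity-treated plants but not in watered plants, or the reverse. Seedlings had reached the stage of 3 leaves when they were given either water or a salinity solution of 100 mM. The labels name neither the salt nor the length of the treatment, and they give no description of either cultivar beyond its name. The comparison rests on 6 of the 24 RNA sequencing libraries of the study, 3 from ST shoots and 3 from SS shoots under salinity. The 6 shoot libraries given water (3 ST and 3 SS) provide the reference state, and the 12 root libraries of the same 4 combinations provide a second organ. The replicates are described as biological, but how many plants made up a library is not stated. All 50202 features of the deposited tables were considered, and 24810 were tested because they reached 1 FPKM in at least 3 of the 12 shoot libraries. FPKM is a read count divided by the length of the feature and by the library total.

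High salinity lowers the water potential around the root and lets sodium and chloride build up in leaves. Maize shoots respond by closing stomata, slowing leaf growth, making compatible solutes and antioxidant enzymes, and moving sodium out of the cytosol. Cultivars can differ in transcript levels before any stress, and they can also differ in how a transcript responds. Only a response that differs makes a cultivar difference appear, disappear or change direction under salinity. Part of the response runs through microRNAs, short RNAs cut from hairpin precursors that silence messenger RNAs with matching sequences. MIR168 acts on ARGONAUTE1, the protein that carries microRNAs. MIR156 acts on SPL transcription factors that time the change from juvenile to adult leaves. MIR408 and MIR528 act on messengers of copper proteins, and MIR164 acts on NAC transcription factors.

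Under salinity the ST shoot libraries held 21914845 to 24155340 reads each and the SS shoot libraries 25443295 to 28825226, so the ST libraries were the shallower ones. The 100 most abundant features took up 27.65% to 27.97% of an ST library and 19.35% to 20.22% of an SS library. The median log2 difference (ST minus SS) over all tested features was -0.19 under salinity and -0.09 under water in the values of the authors, and rescaling the libraries by median of ratios brought both to 0.00 within rounding. The part of the most abundant features in that shift was not tested. Identifiers with the prefix Zm00001d made up 22798 of the tested features, and none of them matched a gene name in the reference table. The symbols of the marker genes for shoot and root, and of 13 gene lists for processes such as photosynthesis, ion transport and proline synthesis, likewise had 0 matches. The tissue label was therefore not checked against markers, and most features below are known by identifier only. Because whole shoots were sampled, fewer cells of a type and less RNA per cell cannot be told apart in any difference given below.

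Under salinity the shoots of ST and SS differed in most of the transcripts measured. The limma test called 19868 of 24810 features (80.1%) at an adjusted p of 0.05, 7186 higher in ST (29.0%) and 12682 lower (51.1%). A difference of at least 2-fold on the log2(FPKM + 1) scale was reached by 2708 features higher in ST (10.9%) and 4136 features lower (16.7%), which is 27.6% of those tested. At 4-fold the counts were 941 (3.79%) and 1347 (5.43%). The libraries of the cultivars did not overlap for 20136 features (81.2%), and under water for 81.5%. The excess of lower features followed the scaling: ST was the higher cultivar in 36.2% of the calls before and in 49.8% after median-of-ratios scaling, and with that scaling the 2-fold lists held 3287 higher and 3361 lower features.

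The features named here for the widest called differences had libraries that did not overlap. Except for Zm00001d039914, they had almost no reads in the lower cultivar. Zm00001d050635 had 801, 825 and 849 FPKM in the ST shoots and 0.0672, 0 and 0.152 FPKM in the SS shoots, the latter from 0 to 2 reads per library. Zm00001d025423 had 400, 396 and 409 FPKM in ST and 0.123, 0 and 0 FPKM in SS. Under water ST had means of 880 and 409 FPKM and SS again 0 to 2 reads per library, and the cultivar difference did not change by the limma test of the interaction (log2 -0.09 ± 0.08 SE, adjusted p = 0.402, and -0.02 ± 0.09 SE, adjusted p = 0.872). In the other direction, Zm00001d039914 had 4.03, 3.66 and 5.65 FPKM in ST, from 73 to 106 reads per library. In SS it had 1220, 1220 and 1190 FPKM. Its SS level had been 319 ± 8.12 FPKM (SD, n = 3) under water, and its ST level 1.60 ± 1.70 FPKM, so the transcript was higher under salinity in both cultivars. Zm00001d000508 had 1 read in each ST library under salinity (0.0649 to 0.0715 FPKM) and 186, 180 and 171 FPKM in SS. Its SS level under water was 58.1 ± 0.691 FPKM, and no ST library had a read there. The difference of Zm00001d000508 widened by -1.51 ± 0.07 (log2, SE; limma adjusted p = 1.64e-09), but this value depends on the pseudocount where ST has 0 or 1 read, and a test on the recovered reads gave 0.12 with an adjusted p of 0.891.

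Of the 50202 features considered, 220 had at least 5 FPKM on average in ST shoots and 0 reads in all 3 SS shoots under salinity. Of these, 165 also had 0 reads in the SS shoots under water, and 96 had 0 reads in all 12 SS libraries of both organs. The mirror set, with at least 5 FPKM in SS and 0 reads in ST, held 178 features, of which 125 had 0 reads in ST under water too and 69 had 0 reads in every ST library. With 0 reads the limit is set by 3 reads over the depth of the group, which covers counting error only. Presence in one cultivar was thus mostly shared between water and salinity. Features added to the reference set, which carry identifiers of their own, were often far apart: 563 were at least 2-fold higher and 468 at least 2-fold lower in ST, 57.5% of the 1794 tested, against 25.1% of the Zm00001d features and 27.6% of all features.

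Most large differences were present in both treatments. Of the 2708 features at least 2-fold higher in ST under salinity, 2064 were also at least 2-fold higher under water, which is 76.2% of the salinity list and 70.3% of the water list (2938 features, 11.8%). Of the 4136 lower features, 2912 were also lower under water, 70.4% of the salinity list and 73.4% of the water list (3967 features, 16%). A further 633 higher and 1202 lower features passed 2-fold under salinity only, and 852 higher and 1044 lower ones passed it under water only, where 27.8% of all tested features passed it. Passing a limit in one treatment alone does not show a change, so the interaction (the difference under salinity minus the difference under water) was tested. It was called for 12739 features by limma (51.3%), and at 2-fold for 826 positive (3.33%) and 951 negative ones (3.83%), together 7.16%. Calls of any size were positive for 20% and negative for 31.4% of the tested features. In 4675 of the called features the difference kept its sign and was wider under salinity, in 4323 it was narrower, and in 3741 the sign changed, with both differences called in 1566 of these. Of the 6844 features at 2-fold under salinity, 3613 (52.8%) had a called interaction and 869 (12.7%) had one of at least 2-fold. The sign of the interaction also followed the scaling: the positive share of the called interactions was 38.9%, and 52.6% when the libraries had been rescaled by median of ratios.

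**Figure D1:**
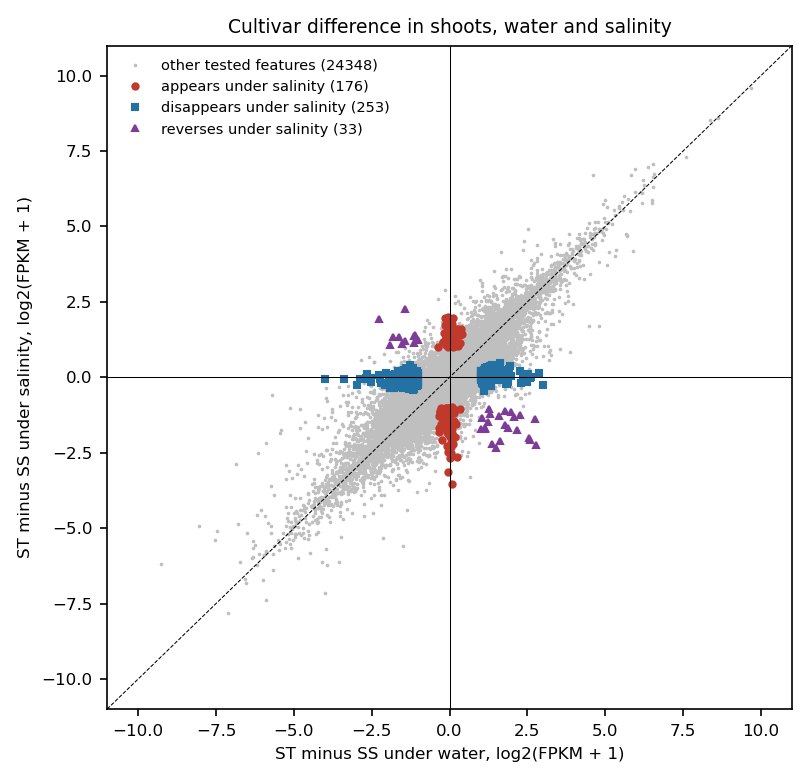
Cultivar difference (ST minus SS) of each tested shoot feature under water (horizontal axis) and under salinity (vertical axis), both in log2(FPKM + 1); the dashed line marks equal differences. The 24348 grey points lie mostly along that line, the 176 features whose difference appears lie along the vertical axis, the 253 whose difference disappears along the horizontal axis, and the 33 that reverse in the upper left and lower right quadrants.

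Strict limits were then set on the shape of the change. A difference was said to appear when it was called and at least 2-fold under salinity, not called and under 0.5 on the log2 scale under water, and the interaction was called. The mirror rule defined a difference that disappears, and a reversal needed both differences called at 2-fold with opposite signs. These limits choose the features by the values that follow, so the values describe them and are given without p-values. The 3 rules took 462 features (1.86% of those tested): 176 appeared (0.709%), 253 disappeared (1.02%) and 33 reversed (0.133%). With a pseudocount of 0.1 the rules took 731 features, 63 of them reversals, and with voom on the recovered reads 757, 81 of them reversals. The limits cut through a continuous range. The weakest member among those that appear had a difference of 1.001 and the nearest feature outside 0.998, with 35 features within 0.1 inside the limit and 56 within 0.1 outside it; for those that disappear the values were 1.002 and 0.999, with 57 inside and 62 outside. None of the 462 was among the 125 features in the top 100 by level of either cultivar under salinity. The classes took 1.18% of all features at 100 FPKM and above in the higher cultivar, so a count of 0 among 125 is near that share. Of those 125, 43 were at least 2-fold higher and 19 at least 2-fold lower in ST. The shares were 16.7% and 20.4% of the features at 100 FPKM and above, and 10.9% and 16.7% of all tested features. Only 75 of the 125 were in the top 100 of both cultivars. Entry through 1 cultivar alone favours a difference, so the counts of 43 and 19 only describe this list. The median length of the features was 1019 bases where the difference appears, 1075 where it disappears and 927 where it reverses, against 1527 for all tested features. Their median level in the highest of the 4 shoot groups was 7.75, 6.06 and 18.6 FPKM, against 10.5 FPKM for all tested features.

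Where the difference appeared under salinity, ST was the lower cultivar in 124 features (0.50%) and the higher one in 52 (0.21%). The 124 had a median difference of -1.27 under salinity and -0.07 under water (log2), and the salinity values ran from -3.53 to -1.0. In 58 of the 124 only SS changed by the limma call, and it rose; in 42 SS rose while ST fell; and in 12 only ST changed, and it fell. The median change was 0.99 in SS and -0.26 in ST. Over all tested features SS rose in 33.6% and fell in 23.0%, and ST rose in 18.9% and fell in 22.8%. The joint patterns given here and for the other classes were not counted over all features. The rules fix the direction in which ST and SS move relative to each other, so these patterns are descriptions. Among the 52 features higher in ST, the most frequent pattern was a fall in SS with a rise in ST (24 features), followed by a rise in ST alone (11) and a fall in SS alone (9). Their median difference was 1.36 under salinity and 0.04 under water. The count of 52 depended on the scaling and was 81 after median-of-ratios scaling, where the count of lower features was 106. A missed call under water does not show equal levels. The 95% interval of the water difference lay within 2-fold on either side for 51 of the 52 and for all 124, and within 0.5 on the log2 scale for 41 and 99. The rule had already required a small water difference, so these intervals are descriptions and no further support for equal levels.

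The 2 features with the widest change and higher in ST, among those with a mean of at least 5 FPKM in a shoot group, moved in different ways. Zm00001d049111 had 30.9, 30.6 and 30.4 FPKM in ST under salinity and 7.86, 5.94 and 7.86 FPKM in SS. Under water ST had 10.9, 11.6 and 9.56 FPKM and SS 11.6, 10.8 and 13.0 FPKM. The cultivars overlapped under water and were well apart under salinity, because ST was higher and SS lower than in watered plants: the difference was 1.95 ± 0.10 (log2, SE) under salinity and -0.14 ± 0.10 under water. Zm00001d040731 had 32.9, 34.4 and 33.7 FPKM in ST under salinity and 7.86, 7.07 and 8.39 FPKM in SS, with 4.35, 3.84 and 4.12 FPKM (ST) and 3.77, 5.01 and 4.09 FPKM (SS) under water. Both cultivars were higher under salinity, ST by 2.77 ± 0.08 and SS by 0.73 ± 0.08 on the log2 scale.

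The 2 features with the widest change and lower in ST were both high only in SS under salinity. Zm00001d043610 had 40.2, 34.6 and 41.3 FPKM in SS under salinity, against 2.23, 2.53 and 2.56 FPKM in ST. Under water SS had 4.68, 5.89 and 3.68 FPKM and ST 5.75, 3.90 and 5.37 FPKM. SS was thus higher in every salinity library than in any watered one, ST was lower, and the difference was -3.53 ± 0.14 under salinity and 0.07 ± 0.14 under water. Novel01335, a transcript model added to the reference set, had 6.98, 7.92 and 8.54 FPKM in SS under salinity (63 to 68 reads) and 0 reads in each ST library. Against the limit of 3 reads over the ST group (0.139 FPKM), ST was at least 56.2-fold lower. Under water no library of either cultivar had more than 1 read of Novel01335.

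Where the difference disappeared under salinity, ST had been the higher cultivar under water in 136 features (0.548%) and the lower one in 117 (0.472%). This balance depended on the scaling: the counts were 106 and 136 after median-of-ratios scaling and 117 and 131 after quantile normalization. The 136 had a median difference of 1.26 under water and 0.05 under salinity. In 50 of them SS rose while ST fell, in 42 only ST changed, and it fell, and in 35 only SS changed, and it rose. The 117 had a median difference of -1.30 under water and -0.07 under salinity. In 45 of these SS fell while ST rose, in 43 only SS fell and in 14 only ST rose. The 95% interval of the salinity difference lay within 2-fold on either side for 133 of the 136 and for 114 of the 117, and within 0.5 on the log2 scale for 110 and 81. The rule had required a small salinity difference, so these intervals too are descriptions.

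Zm00001d026015 had 19.6, 18.9 and 17.1 FPKM in ST and 0.645, 1.54 and 2.57 FPKM in SS under water. Under salinity it had 2.93, 1.72 and 3.53 FPKM in ST and 3.34, 3.98 and 2.77 FPKM in SS. The ST surplus was gone and the libraries overlapped: the difference was 2.99 ± 0.24 (log2, SE) under water and -0.25 ± 0.24 under salinity, with a 95% interval of -0.76 to 0.26. Zm00001d016256 had almost the same profile, with 19.2, 16.7 and 17.5 FPKM in ST against 0.976, 1.35 and 2.68 FPKM in SS under water, and 2.27, 2.26 and 3.15 FPKM against 2.19, 2.74 and 1.81 FPKM under salinity. In both, the ST level under salinity was down at the SS level: ST changed by -2.42 ± 0.24 and -2.41 ± 0.19 on the log2 scale.

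The widest changes among features that had been lower in ST were losses in SS with smaller rises in ST. Zm00001d046157 had 55.8, 50.3 and 50.5 FPKM in SS and 1.64, 2.41 and 2.94 FPKM in ST under water. Under salinity SS had 10.1, 8.90 and 8.86 FPKM and ST 8.47, 9.10 and 8.92 FPKM. The cultivars met at about the same level from opposite sides, with a difference of -4.02 ± 0.11 under water and -0.06 ± 0.11 under salinity (95% interval -0.31 to 0.18). Zm00001d021781 had 21.2, 20.7 and 21.4 FPKM in SS under water and 2.06, 2.14 and 1.68 FPKM under salinity. In ST it stayed low, at 0.930, 1.17 and 1.21 FPKM under water and 1.55, 1.84 and 2.07 FPKM under salinity. This was a called rise of 0.42 ± 0.09 (log2, SE). Here SS came down to a level close to that of ST, and the difference was -3.40 ± 0.09 under water and -0.07 ± 0.09 under salinity.

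**Figure D2:**
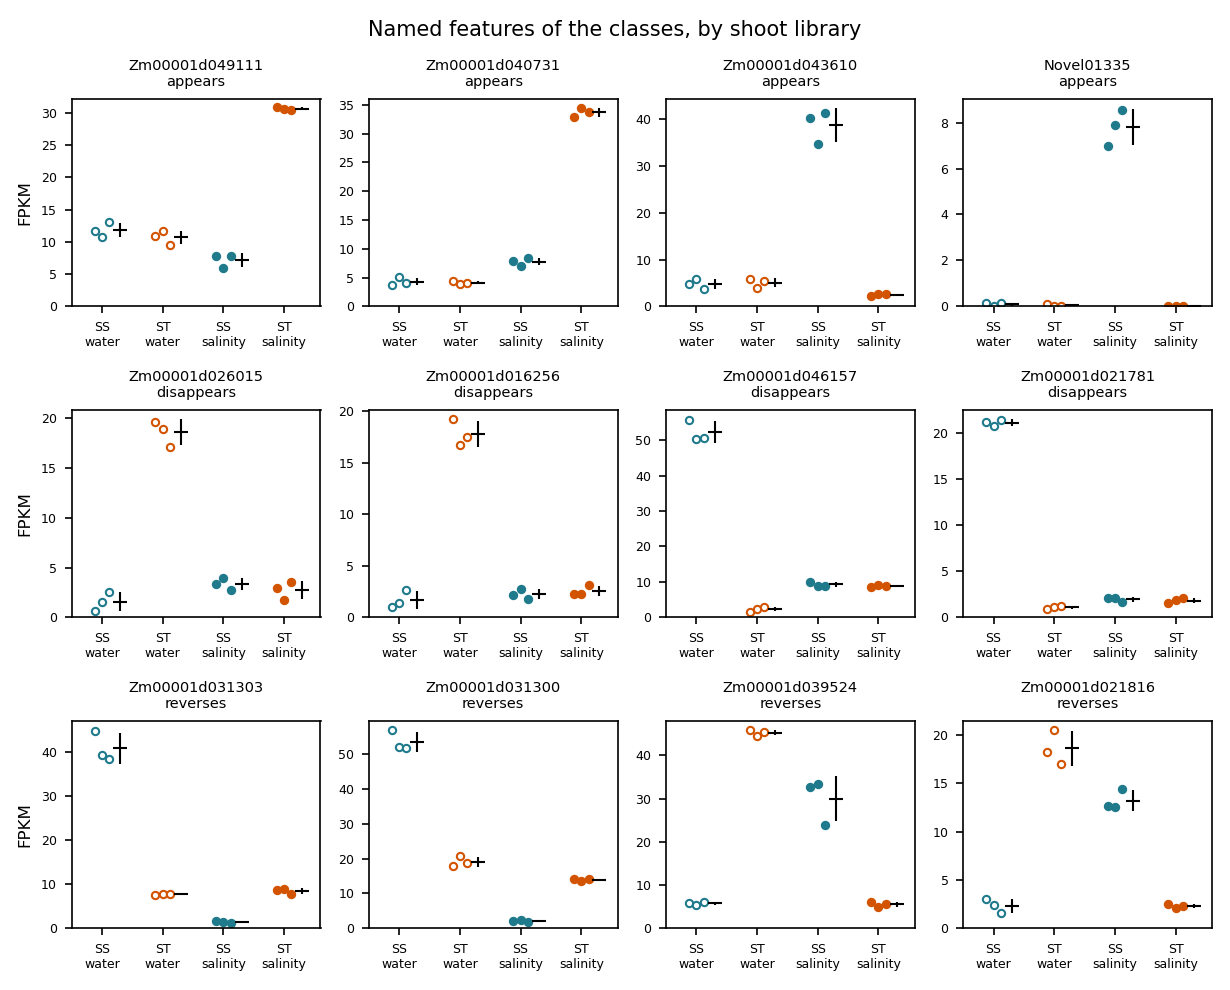
FPKM of the 12 identifier-only features named for their class, in each of the 12 shoot libraries; open circles are water and filled circles salinity, SS in teal and ST in orange, and the cross beside each group gives the mean and SD of 3 libraries. In the top row the cultivars part under salinity (Zm00001d043610 at 38.7 FPKM in SS and 2.44 in ST), in the middle row they meet, and in the bottom row the higher cultivar changes.

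The 33 reversals were mainly of one kind: in 22 (0.0887%) the ST surplus under water became a deficit under salinity, and in 21 of these 22 SS rose while ST fell. In the other 11 (0.0443%), ST went from lower to higher, and in 8 of these SS fell while ST rose. Zm00001d039524 had 45.9, 44.6 and 45.4 FPKM in ST and 5.84, 5.48 and 6.05 FPKM in SS under water, and 6.14, 4.93 and 5.58 FPKM in ST and 32.8, 33.3 and 24 FPKM in SS under salinity. ST under salinity was near the level of watered SS, and the difference went from 2.77 ± 0.10 to -2.23 ± 0.10 (log2, SE). Zm00001d021816 had 18.2, 20.5 and 17.0 FPKM in ST and 3.05, 2.37 and 1.60 FPKM in SS under water, and 2.55, 2.15 and 2.28 FPKM in ST and 12.6, 12.5 and 14.4 FPKM in SS under salinity. Its difference went from 2.57 ± 0.13 to -2.09 ± 0.13. In the opposite direction, the 2 features with the widest change differed from most of the 11 in that ST did not rise by the call. Zm00001d031303 had 44.9, 39.4 and 38.5 FPKM in SS under water and 1.65, 1.53 and 1.28 FPKM under salinity, while ST had 7.64, 7.84 and 7.88 FPKM and then 8.62, 9.02 and 7.84 FPKM. Zm00001d031300 had 56.7, 51.9 and 51.6 FPKM in SS under water and 2.04, 2.43 and 1.89 FPKM under salinity, while ST had 17.8, 20.6 and 18.8 FPKM and then 14.0, 13.6 and 14.0 FPKM. SS fell by 4.08 ± 0.07 and by 4.13 ± 0.07 on the log2 scale in these features, whereas ST changed by 0.11 ± 0.07 and -0.43 ± 0.07.

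Over the 462 features together, the change in SS was the larger one in 280 (60.6%) and the change in ST in 182. The same share over all tested features was 58.8%, so it is close to the background. The share was 71.8% where a difference appears with ST lower and 68.4% where a difference with ST lower disappears, and it was 47.8% where a difference with ST higher disappears and 36.4% in the 22 reversals to a lower ST level. The median size of the change in the 462 was 0.86 in SS and 0.50 in ST, against 0.23 and 0.16 over all tested features. By the limma calls, 8327 features rose (33.6%) and 5705 fell (23.0%) under salinity in SS shoots, and 4697 rose (18.9%) and 5654 fell (22.8%) in ST shoots. These counts, and those of which cultivar changed in the classes, use the values of the authors. Their dependence on the scaling was not tested.

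**Figure D3:**
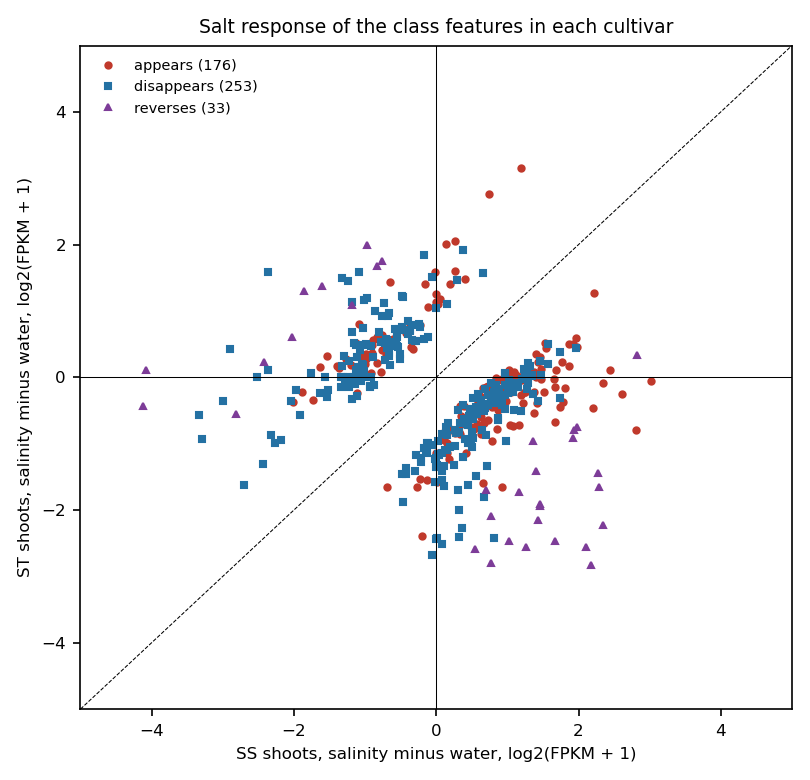
Change from water to salinity in SS shoots (horizontal axis) and in ST shoots (vertical axis) of the 462 features of the 3 classes, in log2(FPKM + 1); the dashed line marks equal changes. Points far to the right with little height are features that rose in SS alone, such as Novel01335 (3.02 in SS and -0.05 in ST), and the 33 reversals lie far from the line, with called changes of opposite sign in the cultivars for 21 and 8 of them.

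Root libraries gave a reading that the rules did not use. Of the 462 features, 387 were tested in roots, and the change of the cultivar difference was called in the same direction as in shoots for 161 (41.6%) and in the opposite direction for 74. Over all 22902 features tested in both organs, the shoot direction was called in roots for 5725 (25.0%) and the opposite direction for 3917. In roots 23.4% of 27109 tested features had a called positive change and 18.4% a called negative one. The share in the shoot direction was 52.1% (61 of 117, with 19 opposite) where ST lost a surplus. It was 18 of 36 (4 opposite) where ST gained one. Where the difference appeared with ST lower, the share was 32.4% (35 of 108, with 25 opposite). Where a difference with ST lower disappeared, the share was 34.0% (33 of 97, with 22 opposite). In the 22 reversals to a lower ST level, 11 of the 20 tested had a called change in the same direction in roots and 0 had one in the opposite direction. In the 11 reversals to a higher ST level, 3 of the 9 tested had one in the same direction and 4 in the opposite direction. At 2-fold the counts over the 387 were 62 in the same and 21 in the opposite direction. Over the 22902 features tested in both organs they were 719 and 448. Of all features tested in roots, 2.9% had a called positive and 3.25% a called negative change of that size. No test of these shares was made. Of the features at least 2-fold higher in ST shoots under salinity, 1410 of the 2300 tested in roots (61.3%) were also at least 2-fold higher there, and 1618 of 3732 (43.4%) of the lower ones were also lower, against 11.1% and 11% of all features tested in roots.

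Single features differed in what roots showed. In Zm00001d039524 the change had the shoot direction: SS roots had 5.56 ± 0.661 FPKM under water and 27.7 ± 2.34 FPKM under salinity (SD, n = 3), ST roots 6.24 ± 1.47 and 8.97 ± 0.928 FPKM, and the interaction in roots was -1.65 (limma adjusted p = 2.85e-05). Zm00001d043610 ran the opposite way: ST roots went from 22.5 ± 4.68 to 259 ± 24.8 FPKM and SS roots from 42.0 ± 6.25 to 66.7 ± 4.82 FPKM, an interaction of 2.82 (limma adjusted p = 2.51e-07), whereas in shoots it was SS that rose. Zm00001d026015 was at 253 to 351 FPKM on average in every root group, far above its shoot levels, and its cultivar difference in roots did not change by the test (0.02, limma adjusted p = 0.9). Zm00001d031303 was lower in ST roots by the same amount under water and salinity (-0.66 and -0.67), with an interaction of -0.01 (limma adjusted p = 0.966).

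**Figure D4:**
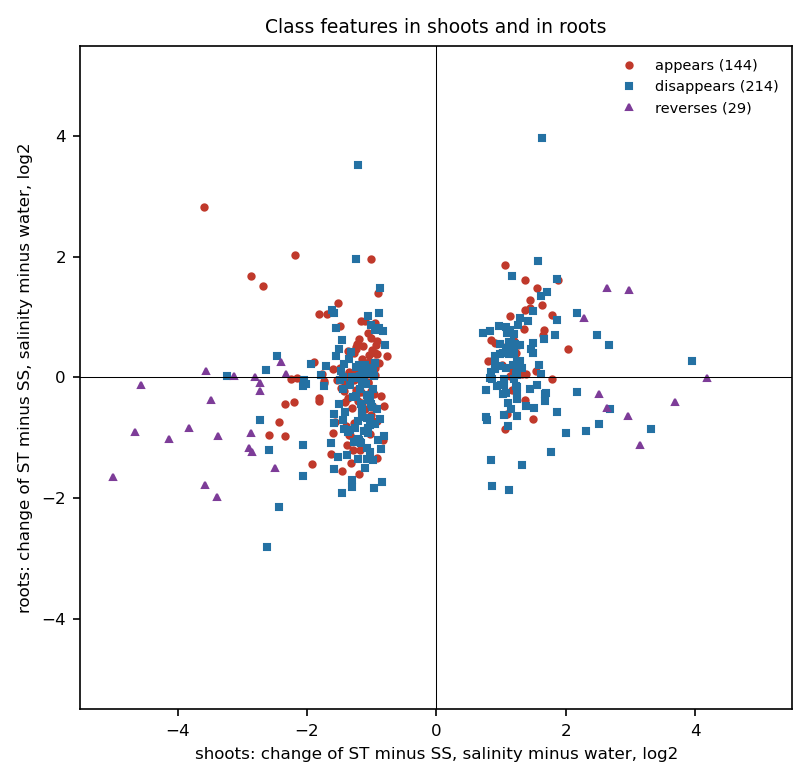
Change of the cultivar difference from water to salinity in shoots (horizontal axis) and in roots (vertical axis) of the 387 class features tested in roots, in log2(FPKM + 1). Of these, 161 had a called root change of the shoot sign and 74 one of the opposite sign; Zm00001d043610 is the point at -3.59 in shoots and 2.82 in roots.

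MicroRNA precursors were the only features with reference names, and 153 of the 154 in the tables matched one. Reads were found for 39 in any shoot library and 20 were tested. The values come from reads on the precursor feature and do not measure the mature microRNA. Precursors of a family can be near-identical, so reads could be shared between family members, and 16 of the 20 features were shorter than the 150 bases of a read, so levels per length are uncertain; only the same feature is compared between groups. Under salinity 6 of the 20 were higher in ST, 8 were lower and 6 were not called by limma (80.1% of all tested features were called), and under water 8 were higher, 9 lower and 3 not called. The median difference over the 20 was -0.08 under salinity and -0.32 under water, against -0.19 and -0.09 over all tested features. The change of the difference was called for 6, of which 5 were positive. Over all tested features 51.3% had such a call, and 38.9% of these calls were positive. None of the 20 met the limits of the 3 classes, which took 1.86% of all tested features, so none among 20 is near that share.

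The MIR168 precursors, whose mature product acts on ARGONAUTE1, differed between the cultivars in opposite directions. zma-MIR168b had 89.9, 93.9 and 91.4 FPKM in ST and 19.7, 24.2 and 12.1 FPKM in SS under salinity, and 50.9, 47.2 and 50.6 FPKM in ST and 24.4, 22.1 and 18.1 FPKM in SS under water. The cultivars did not overlap in either treatment, and the surplus in ST was wider under salinity, 2.29 ± 0.17 against 1.18 ± 0.17 (interaction 1.11 ± 0.25, limma adjusted p = 0.00216). zma-MIR168a had 114, 107 and 120 FPKM in ST and 385, 391 and 450 FPKM in SS under salinity, after 53.8, 54.2 and 58.9 FPKM and 349, 307 and 317 FPKM under water. It was lower in ST in all comparisons of libraries, and the deficit narrowed from -2.52 ± 0.07 to -1.84 ± 0.07 (interaction 0.68 ± 0.09, limma adjusted p = 5.81e-05). Within ST both precursors rose under salinity, by 0.88 ± 0.17 and 1.01 ± 0.07. Within SS zma-MIR168a also rose, by 0.33 ± 0.07 (limma adjusted p = 0.000895), and zma-MIR168b was not called (-0.24 ± 0.17). In roots the difference of zma-MIR168a was not called under water (0.22, limma adjusted p = 0.0927) or salinity (0.09, 0.484). That of zma-MIR168b was called in both (1.32 and 1.64).

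zma-MIR408b and zma-MIR528a, of the families that act on copper protein messengers, were lower in ST, and the gap was narrower under salinity. zma-MIR408b had 3.10, 2.53 and 2.69 FPKM in ST and 41.1, 39.4 and 56.9 FPKM in SS under salinity, after 1.79, 0.263 and 1.11 FPKM and 109, 96.8 and 104 FPKM under water. SS fell from a mean of 103 to 45.8 FPKM while ST rose from 1.05 to 2.78 FPKM, and the difference went from -5.74 ± 0.22 to -3.61 ± 0.22 (interaction 2.12 ± 0.31, limma adjusted p = 8.17e-05). zma-MIR528a had 6.31, 8.75 and 5.01 FPKM in ST and 9.87, 11 and 16.9 FPKM in SS under salinity, after 2.75, 2.83 and 5.97 FPKM and 41.5, 26.8 and 28.7 FPKM under water. Its difference went from -2.82 ± 0.26 to -0.82 ± 0.26 (interaction 2.0 ± 0.37, limma adjusted p = 0.000574). The remaining difference of zma-MIR528a under salinity, with a limma adjusted p of 0.0112, lost its call after median-of-ratios scaling (adjusted p = 0.0522), after quantile normalization (0.0664), without SS salinity replicate 3 (0.0609) and without ST salinity replicate 3 (0.0537). The related zma-MIR528b, at 1.17, 3.18 and 2.26 FPKM in ST, had 0 reads in SS under salinity, so ST was at least 4.63-fold higher, from 2 to 6 reads per library. In roots zma-MIR408b went from a difference of -2.55 under water to 0.05 under salinity, an interaction of 2.60 (limma adjusted p = 0.000428). The SS root mean went from 7.17 to 0.567 FPKM and the ST root mean from 0.42 to 0.631 FPKM. Both cultivars were thus below 1 FPKM in roots under salinity.

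zma-MIR156d was lower in ST under water and not called under salinity, with differences below the 2-fold limit. It had 8.84, 12.7 and 9.26 FPKM in ST and 16.9, 16.8 and 15.2 FPKM in SS under water, and 24.9, 20.2 and 27.4 FPKM in ST and 26.8, 18.3 and 23.1 FPKM in SS under salinity. The libraries were apart under water and overlapped under salinity, where the difference was 0.09 ± 0.15 with a 95% interval of -0.23 to 0.40 (interaction 0.72 ± 0.21, limma adjusted p = 0.0102). After quantile normalization its salinity difference was called with ST higher (0.34, limma adjusted p = 0.0498). It rose in both cultivars, by 1.17 ± 0.15 in ST and 0.44 ± 0.15 in SS. zma-MIR156k kept its surplus in ST, with 18.2, 19.2 and 19.0 FPKM in ST and 10.7, 9.47 and 9.91 FPKM in SS under salinity, a difference of 0.84 ± 0.16 against 1.12 ± 0.16 under water (interaction limma adjusted p = 0.330). zma-MIR156e did not differ by the test in either treatment, with 95% intervals of -0.28 to 0.58 under salinity and -0.33 to 0.53 under water. zma-MIR156f (-0.73 ± 0.30, limma adjusted p = 0.0397) and zma-MIR156j (-0.67 ± 0.28, limma adjusted p = 0.0445) were called lower in ST under salinity, but their libraries overlapped, and the calls were lost under 9 and 14 of the 20 alternative settings, median-of-ratios scaling included (adjusted p = 0.103 and 0.114).

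The tested MIR164 precursors had reads in SS shoots and none in ST shoots. zma-MIR164c had 1.28, 1.39 and 1.60 FPKM in SS under salinity and 0.745, 0.274 and 0.149 FPKM under water, with 0 reads in all 6 ST shoot libraries, so ST was at least 8.80-fold lower under salinity. SS held 10 to 11 reads per library under salinity and 1 to 5 under water. The gap widened by -0.83 ± 0.18 (limma adjusted p = 0.00184), a call that the test on recovered reads did not make (adjusted p = 0.0813). Only the SS salinity libraries reached 1 FPKM, so zma-MIR164c was tested only through the group where it is high. Its adjusted p is not free of that choice, and the widening is a description. zma-MIR164b had 1.36, 1.17 and 1.84 FPKM in SS under salinity and 0 reads in ST, which was at least 4.27-fold lower, and it did not change with treatment (interaction -0.09 ± 0.27, limma adjusted p = 0.812). In roots zma-MIR164b had 19.1 ± 2.17 FPKM in SS under salinity and again 0 reads in ST.

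The other 8 tested precursors had at most 17 reads in any shoot library. zma-MIR171m, whose family acts on HAM transcription factors of the meristem, had 2.12, 4.12 and 4.31 FPKM in SS and 0, 0 and 1.07 FPKM in ST under salinity (-1.78 ± 0.29, limma adjusted p = 8.1e-05). Higher in ST were zma-MIR169m (0.94 ± 0.31, limma adjusted p = 0.0131) and zma-MIR169n (1.0 ± 0.35, limma adjusted p = 0.0189), of a family that acts on NF-YA factors, and zma-MIR393a, of a family that acts on auxin receptors. zma-MIR393a had 0 reads in SS in both treatments and 1 to 4 reads per ST library under salinity, at least 3.53-fold higher. The call of zma-MIR169n was lost without ST salinity replicate 2 (limma adjusted p = 0.104), without SS salinity replicate 2 (0.0616) and with a pseudocount of 0.1 (0.0513), and that of zma-MIR393a was lost without ST salinity replicate 1 (limma adjusted p = 0.0652) or 2 (0.0587). zma-MIR159a, zma-MIR160b, zma-MIR399e and zma-MIR399j were not called under salinity. Of these, zma-MIR159a, zma-MIR399e and zma-MIR399j were called under water, but their interactions were not called (limma adjusted p = 0.223, 0.125 and 0.384). Without ST water replicate 3 the interaction was called for zma-MIR399e (-1.55, limma adjusted p = 0.0029) and for zma-MIR159a (0.65, 0.0379), and the fit of all 24 libraries called that of zma-MIR399e (-1.02, 0.0495). zma-MIR160b was called lower in ST under salinity without ST salinity replicate 1 (-0.83, limma adjusted p = 0.0311).

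**Figure D5:**
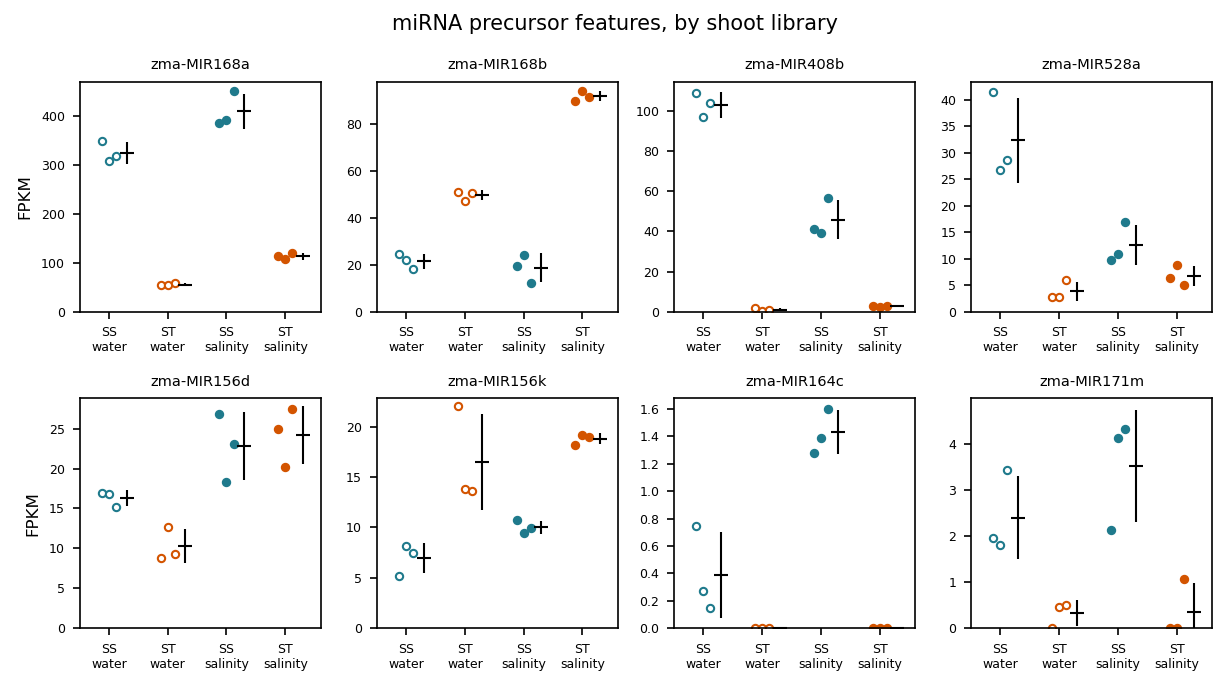
FPKM of 8 microRNA precursor features in each shoot library; open circles are water and filled circles salinity, SS in teal and ST in orange, and the cross gives the mean and SD of 3 libraries. The surplus of zma-MIR168b in ST widens under salinity (91.8 against 18.7 FPKM), the deficits of zma-MIR408b and zma-MIR528a narrow, zma-MIR156d overlaps under salinity, and zma-MIR164c has no read in ST.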

How the data were processed

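The authors deposited FPKM values, in a separate table for each library. TopHat2, Cufflinks, Cuffdiff and the build B73 RefGen_v3 are named without roles, per the submitters' processing notes; the sources used here name no annotation. Zm00001d identifiers belong to a later gene set than that build, so no coordinates are printed. Reads of both cultivars were assigned to 1 annotation, and the effect of sequence differences from B73 on the values was not tested. A row without an identifier was left out of each table.

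Each value was a whole number of reads divided by length and library total, within 0.002 reads, for 100% of the 40811 features above 0. The totals thus found were 19747198 to 28825226 over the 24 libraries, and the features held at least 99.9993% of them.

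Differences were tested with limma 3.58.1 (R 4.3.3) with a mean-variance trend on log2(FPKM + 1) over the 12 shoot libraries, with 1 coefficient per group, two-sided, and Benjamini-Hochberg adjustment over all 24810 features. Fold changes on that scale understate those of low features. Roots were fitted in the same way. The script was tested on simulated data. Replicates of a group correlated at 0.9943 to 0.9963 and differed by more than sampling noise (chi-square per degree of freedom of 1.92 or more), so none was counted as a duplicate. Voom on the recovered reads was an alternative test, which called 19985 features under salinity.

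Named features known by identifier only are the 2 per direction with the widest difference (salinity) or interaction (classes), with a mean of at least 5 FPKM in a shoot group, a call and libraries that do not overlap; every tested microRNA precursor is given. The classes, lists and rules were chosen with earlier results of these data known.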

Additional observations from a re-analysis of the deposited data

Results flagged for a closer look

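Each result here was singled out because the cultivar difference (ST minus SS) in shoots differed between water and salinity by the limma test of the interaction, which called 12739 features. Values are interactions on the log2(FPKM + 1) scale with 3 libraries per group, and a positive value means that ST gained on SS under salinity.

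Among features whose difference appears under salinity, the interaction was 2.09 for Zm00001d049111, 2.03 for Zm00001d040731, -3.59 for Zm00001d043610 and -3.07 for Novel01335. Among features whose difference disappears, it was -3.24 for Zm00001d026015, -2.73 for Zm00001d016256, 3.95 for Zm00001d046157 and 3.33 for Zm00001d021781. Among reversals it was 4.19 for Zm00001d031303, 3.70 for Zm00001d031300, -5.0 for Zm00001d039524 and -4.66 for Zm00001d021816. Zm00001d000508, with 0 or 1 read in each ST shoot library, had -1.51. These features were chosen by the interaction or by the salinity difference, so their values are descriptions.

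Among the microRNA precursors, the interaction was 2.0 for zma-MIR528a and 2.12 for zma-MIR408b, whose families act on copper protein messengers, 1.11 and 0.68 for zma-MIR168b and zma-MIR168a, 0.72 for zma-MIR156d and -0.83 for zma-MIR164c. The last of these passed the filter on low values only through its SS salinity libraries, so its value is a description.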

How the results depend on the processing

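Counts at 2-fold and class counts depended on the pseudocount, the filter, the test and the limits. With a filter of FPKM of at least 5, 1654 features were at least 2-fold higher in ST under salinity, 30 and 70 differences appeared (ST higher and lower), and 77 and 57 disappeared (ST had been higher and lower). A pseudocount of 0.1 gave 1279 positive and 1594 negative 2-fold interactions, 92 and 212 differences that appear and 63 reversals. Voom on the recovered reads gave 1286 and 1573 interactions, 90 and 220 differences that appear, 208 that disappear with ST higher before, and 81 reversals. Median-of-ratios scaling gave 81 differences that appear with ST higher, and the same count was 78 with quantile normalization; 297 and 277 of the 462 class features were kept. A 4-fold limit left 0 and 12 differences that appear, 10 and 15 that disappear and 3 reversals. With voom the interaction of Zm00001d000508 was 0.12 and was not called (adjusted p = 0.891).

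Leaving out 1 shoot library at a time gave 19123 to 19756 features called under salinity, 18897 to 19864 under water and 11768 to 12237 interactions. The differences that appear numbered 39 to 65 and 96 to 154, those that disappear 104 to 154 and 81 to 138, and the reversals 31 to 36. Without 1 root library, a choice made after seeing the data, 148 to 161 class features had a called root change of the shoot sign.

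With the replicate number as a block, limma called 19753 features under salinity and 12462 interactions, and it gave 54 and 123 differences that appear, 137 and 121 that disappear and 33 reversals. The numbers did not pair the samples: same-numbered libraries of different groups had correlations of their deviations of -0.102 to 0.066, and others of -0.07 to 0.09.

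Of 20 called values of microRNA precursors, 6 lost their call under at least 1 of the alternatives in which the precursor was tested, and 7 values that were not called gained one under at least 1. The cause of these moves was not tested. Many precursors have under 20 reads per library, which limits the precision of their values.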
